A study of Saccharomyces cerevisiae with 6 samples.

Results

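The DAL5 family of Saccharomyces cerevisiae is a group of plasma membrane permeases related in sequence to the allantoate permease Dal5. The members were given as 6 genes: DAL5, SEO1, TNA1, VHT1, FEN2 and THI73. Of these, 5 were found by gene symbol among the 6226 features of the array table (4060 named genes and 2166 unnamed probes). No probe carries the name THI73 in the annotation used here, so it was not analysed here, and the same holds for YCT1 and SOA1, the 2 other genes counted in this family. The list was chosen by family membership with the strain difference of these genes already in view. The members' own strain differences are therefore given as descriptions, without a test.

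These permeases belong to the major facilitator superfamily and bring small organic anions into the cell together with protons. Dal5 takes up allantoate and ureidosuccinate as nitrogen sources, Tna1 takes up nicotinic acid, Vht1 takes up biotin and Fen2 takes up pantothenate. Seo1 is a putative permease that was named from resistance to the toxic compound ethionine sulfoxide. Yeast cannot grow without the coenzymes made from nicotinic acid, biotin and pantothenate, and it either imports these vitamins or makes them from precursors.

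RNA came from 3 cultures of a flor strain, P3_Kan, and 3 cultures of a wine strain, K1_Kan. Flor yeasts form a floating film (velum) on finished wine, and wine yeasts are those that ferment the must. P3_Kan (P3-D5 in the growth protocol), a haploid of mating type alpha, carries a KanMx cassette. K1_Kan is a haploid of mating type a, and the labels do not explain the Kan in its name. All cultures grew with shaking at 28 °C in a synthetic wine-like medium until harvest at an optical density of 1 at 600 nm, conditions in which no velum forms. Each yeast type was represented by 1 strain, so that yeast type, mating type and other strain differences cannot be told apart. The labels call the 3 cultures of a strain biological replicates. For replicate 2 of each strain they add technical rep 2, without explanation. They say no more of the origin of the cultures, so a p-value here takes only the spread among these cultures into account.

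Each culture was read on a one-colour array as log2 intensities, already normalized between arrays, with medians of 8.33 to 8.35. Flor replicate 1 stood apart: its Pearson correlations across probes were 0.9877 and 0.9903 with flor replicates 2 and 3, which correlated at 0.9971 with each other. The wine arrays correlated at 0.9971 to 0.9975, and arrays of different strains at 0.9367 to 0.9503. The mating type markers matched the labels: all 4 alpha-specific genes measured were higher and all 5 a-specific genes lower in the flor strain. Of 6226 features, 2746 (44.1%) differed between the strains at a limma adjusted p under 0.05, 1276 of them higher (20.5%) and 1470 lower (23.6%) in the flor strain. The flor and wine values did not overlap in 56.1% of features.

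The family was split between the strains. SEO1 and DAL5 were far higher in the flor strain, TNA1 and VHT1 were lower there, and FEN2 lay at nearly the same level in both. By the all-feature threshold, 4 of the 5 measured members passed (background 44.1%), 2 of them higher (20.5%) and 2 lower (23.6%) in the flor strain. The values of the strains were fully apart in 4 of 5 members (background 56.1%). A log2 difference of at least 1 was found for 4 of 5 members, against 6.41% of all features. Nothing further is read from these counts, because the members were listed with this contrast known.

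**Figure D1:**
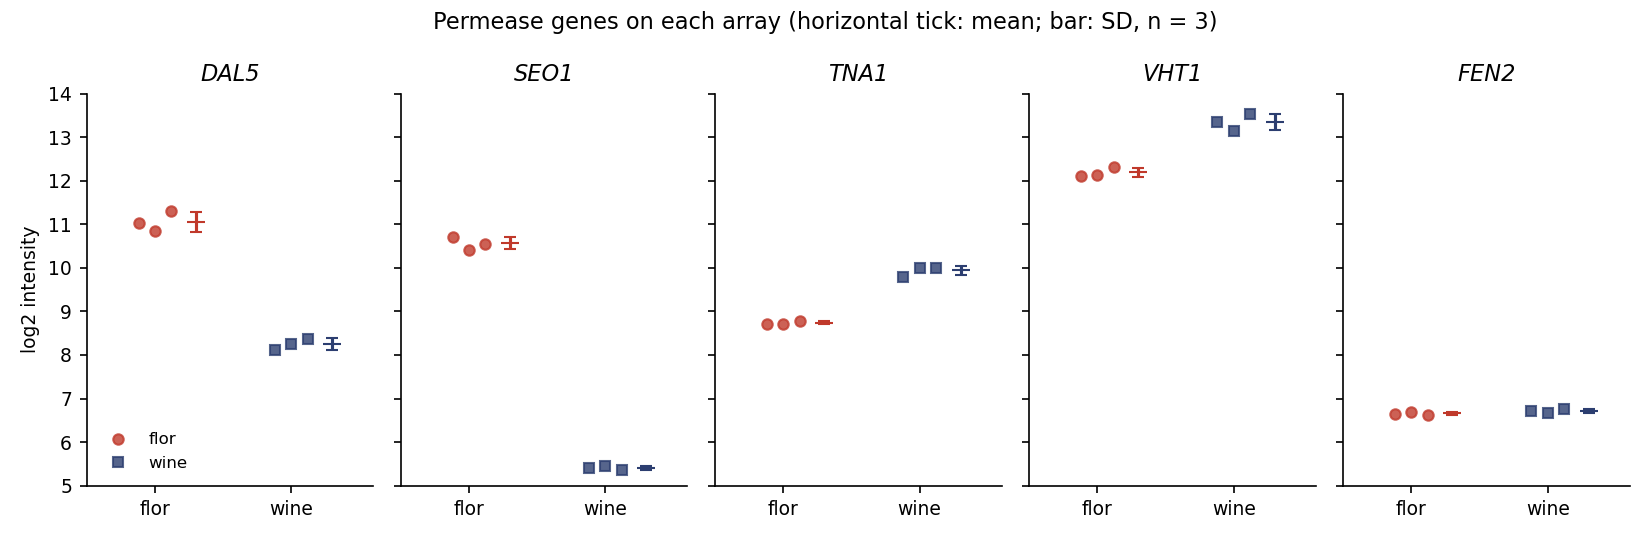
Log2 intensity (y axis) of each measured permease gene on the 3 flor arrays (circles) and the 3 wine arrays (squares), with the mean as a tick and the SD as a bar (n = 3 per strain). SEO1 and DAL5 lie higher on every flor array, TNA1 and VHT1 lie lower on every flor array, and the FEN2 values overlap; levels of different genes come from different probes and are not comparable.

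SEO1 gave log2 intensities of 10.70, 10.41 and 10.55 in flor replicates 1, 2 and 3, against 5.40, 5.46 and 5.36 in the wine replicates. Every flor value was at least 4.96 above every wine value, and neither strain spread over more than 0.29. The means were 10.56 ± 0.14 in flor cultures and 5.41 ± 0.05 in wine cultures (SD, n = 3 each), a log2 difference of 5.15 (95% interval 4.94 to 5.36), or 35.5-fold (30.7 to 41.0). SEO1 held the 7th place among all features by increase in the flor strain. The wine signal lay at the bottom of the measured range, among the dimmest 0.932% of features or lower on each wine array, where the smallest values were 5.29 or 5.30. The wine values therefore cannot be told from an absence of signal, and the fold may understate the difference. Whether the SEO1 probe binds the sequence of both strains alike was not tested.

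DAL5 gave 11.03, 10.84 and 11.30 in the flor replicates, against 8.12, 8.26 and 8.37 in the wine replicates. The strains were apart by 2.47 between the lowest flor and the highest wine value. The means were 11.06 ± 0.23 in flor cultures and 8.25 ± 0.13 in wine cultures, a log2 difference of 2.81 (2.52 to 3.09), or 7.0-fold (5.75 to 8.51). DAL5 varied more between replicates than most genes, with a residual SD of 0.19 that was larger than that of 81.8% of features. It held place 27 among all features by increase and place 20 among named genes. In contrast to SEO1, both strains gave a DAL5 signal above the lower quartile of every array.

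TNA1, the permease of nicotinic acid, gave 8.72, 8.71 and 8.78 in the flor replicates, against 9.80, 10.00 and 10.00 in the wine replicates. All flor values were below all wine values, by at least 1.03. The means were 8.74 ± 0.03 in flor cultures and 9.94 ± 0.11 in wine cultures, a log2 difference of −1.20 (−1.39 to −1.01), which is 2.30-fold lower (2.01 to 2.62) in the flor strain. The flor replicates agreed within 0.06, the closest agreement of any member in either strain.

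VHT1, the biotin permease, gave 12.11, 12.14 and 12.31 in the flor replicates, against 13.35, 13.15 and 13.52 in the wine replicates. The flor values were again all below the wine values, with a gap of 0.84. The means were 12.19 ± 0.11 in flor cultures and 13.34 ± 0.18 in wine cultures, a log2 difference of −1.15 (−1.40 to −0.90), which is 2.22-fold lower (1.87 to 2.64). The signal of VHT1 remained strong in both strains, brighter than at least 94.9% of features on every array. TNA1 and VHT1 held places 101 and 114 among all features by decrease, close to each other in size.

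FEN2, the pantothenate permease, gave 6.65, 6.70 and 6.63 in the flor replicates, against 6.72, 6.67 and 6.75 in the wine replicates. The strains overlapped. The means were 6.66 ± 0.04 in flor cultures and 6.71 ± 0.04 in wine cultures, a log2 difference of −0.06 with an interval of −0.22 to 0.11, or 1.04-fold lower (0.927 to 1.17). FEN2 was also among the steadiest features, since only 3.0% of features had a smaller residual SD. Its signal lay below the lower quartile on all 6 arrays, and at that brightness background can compress a difference.

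The arrays came from 2 slides, with flor replicate 3 and wine replicate 2 on slide 1 and the other 4 arrays on slide 2. The log2 difference on slide 1 and on slide 2 was 3.04 and 2.69 for DAL5, 5.09 and 5.18 for SEO1, and −1.23 and −1.19 for TNA1. VHT1 moved most between the slides, at −0.84 on slide 1 and −1.31 on slide 2. FEN2 stayed at −0.05 and −0.06. Without flor replicate 1, the array that stood apart, the differences were 2.82 for DAL5, 5.08 for SEO1, −1.19 for TNA1, −1.11 for VHT1 and −0.05 for FEN2. Flor replicate 1 itself differed from the mean of flor replicates 2 and 3 by 0.22 for SEO1, −0.11 for VHT1, −0.04 for DAL5 and −0.02 for TNA1 and FEN2, where the median size of that deviation over all features was 0.19.

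**Figure D2:**
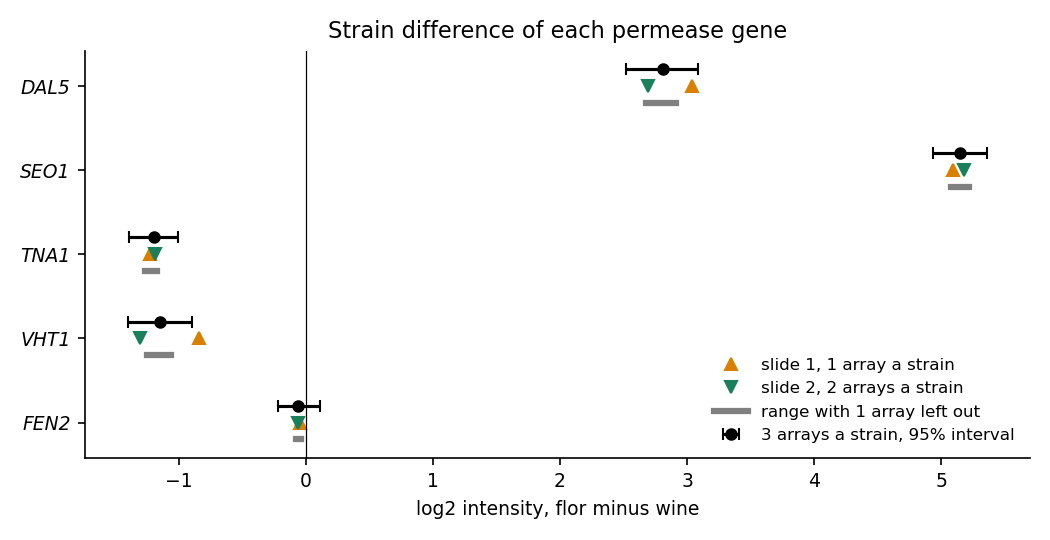
Log2 intensity in the flor strain minus that in the wine strain (x axis) for each permease gene, from 3 arrays per strain with the 95% interval, from slide 1, from slide 2, and as the range when 1 array was left out. The differences of DAL5, SEO1, TNA1 and VHT1 keep their sign on both slides, and VHT1 shows the widest gap between slides, −0.84 against −1.31.

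The genes that surround each permease in metabolism were examined next, in 5 lists with 83 genes, of which 69 had a named probe. Calls for these genes come from the limma test, with adjustment over all 6226 features. The lists were also chosen with earlier results of these data known. The share of each list past the threshold is therefore a description, and nothing further is read from it. The median log2 difference of all features was −0.02.

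Around DAL5, the genes that break down allantoin were mostly higher in the flor strain. The listed urea breakdown gene DUR1,2 had no named probe, so urea use was seen only through the permease gene DUR3. Of 13 measured genes of allantoin and urea use and of nitrogen catabolite repression, the shutdown of poor nitrogen sources when good ones are present, 6 rose, 2 fell and 5 did not pass (8 past the threshold, 61.5%, against 44.1% of all features; list median 0.15). DAL80, which encodes a GATA-type repressor of the nitrogen-regulated genes, led them with 10.16, 10.18 and 10.04 in the flor replicates against 6.79, 6.78 and 6.80 in the wine replicates. That is a log2 difference of 3.34, or 10.1-fold (8.99 to 11.4; adjusted p = 5.0e-09), and the strains did not overlap.

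Next came DAL2, the allantoicase that splits the allantoate imported by Dal5, at 10.33 ± 0.21 in flor cultures and 9.17 ± 0.16 in wine cultures (log2 difference 1.17, adjusted p = 1.1e-04). DAL3, the ureidoglycolate lyase of the following step, rose by 1.09 (adjusted p = 6.7e-04), and DAL1, the allantoinase that makes allantoate, by 0.82 (adjusted p = 9.8e-05). The malate synthase gene DAL7 rose by 0.46 and the activator gene DAL82 by 0.26. DAL4, the permease for allantoin itself, was at 6.68 ± 0.16 in flor cultures and 6.53 ± 0.07 in wine cultures and did not pass (log2 difference 0.15, adjusted p = 0.24). DUR3, the urea permease, did not pass either (−0.44, adjusted p = 0.080), but it passed as lower without flor replicate 1 (−0.19, adjusted p = 0.043), without flor replicate 2 (−0.58, 0.031) and with array weights (−0.25, 0.038).

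The 2 genes of this list that fell were GZF3, another GATA repressor gene (−0.47, adjusted p = 0.0013), and URE2, whose product holds the activator Gln3 in the cytoplasm (−0.22, adjusted p = 0.038). The activator genes GLN3 (−0.18), GAT1 (−0.04) and DAL81 (−0.06) did not pass. URE2 lost its call without flor replicate 2 or 3 or any 1 wine replicate (adjusted p = 0.068 to 0.14), which left 1 lower without flor replicate 3 or without any 1 wine replicate. DAL82 lost its call without any array other than wine replicate 3 (adjusted p = 0.051 to 0.17), and both lost it with slide as a block (0.056 for URE2 and 0.062 for DAL82).

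Around TNA1, genes of nicotinic acid and NAD metabolism moved in both directions. Of 16 measured genes, 8 fell, 4 rose and 4 did not pass (12 past the threshold, 75%, against 44.1% of all features; list median −0.26). NPT1, the phosphoribosyltransferase of the salvage route, which uses the nicotinic acid brought in by Tna1, was at 8.55 ± 0.06 in flor cultures and 9.34 ± 0.12 in wine cultures (log2 difference −0.79, adjusted p = 1.4e-04). NMA1, an adenylyltransferase of the later steps, gave 5.97, 5.94 and 6.09 in the flor replicates against 6.94, 6.97 and 6.92 in the wine replicates (−0.94, adjusted p = 2.2e-05), and its paralog NMA2 fell by 0.63 on the log2 scale.

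The kynurenine route, which makes NAD from tryptophan, was likewise mixed. BNA2, the dioxygenase of its first step, rose by 1.18 on the log2 scale (2.26-fold, 1.69 to 3.01; adjusted p = 9.8e-04), and BNA4 rose by 0.39. BNA1 (−0.46), BNA5 (−0.29) and BNA6 (−0.23) fell. So did BNA3 (−0.39), which encodes a kynurenine aminotransferase and is not a step from tryptophan to NAD. BNA2 spread widely among the flor replicates, at 7.85 in replicate 1 and 8.50 and 8.64 in replicates 2 and 3, against 7.17, 7.04 and 7.24 in the wine replicates.

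URH1, a hydrolase of uridine and nicotinamide riboside, rose by 0.78 (adjusted p = 4.2e-05). Of the repressor complex that acts on NAD synthesis genes, RFM1 rose by 0.59, the deacetylase gene HST1 fell by 0.31 on the log2 scale, and the DNA-binding subunit gene SUM1 did not pass (−0.08, adjusted p = 0.66). The count of lower genes depended on single arrays: it was 4 without wine replicate 1, 4 without wine replicate 2 and 5 without wine replicate 3. HST1 and BNA6 lost their calls with slide as a block (adjusted p = 0.064 and 0.06), HST1 also without flor replicate 3 or any 1 wine replicate (0.074 to 0.13) and BNA6 without any array other than flor replicate 3 (0.068 to 0.14). BNA3 lost its call without flor replicate 2 or any 1 wine replicate (0.055 to 0.13), BNA5 without wine replicate 1 or 2 (0.054 and 0.057), and BNA4 without flor replicate 2 or 3 or wine replicate 2 or 3 (0.069 to 0.1).

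Around VHT1, 3 genes of biotin-dependent enzymes passed the test, and the measured biotin synthesis genes did not. Of 10 measured genes, 2 fell, 1 rose and 7 did not pass (3 past the threshold, 30%, below the 44.1% of all features; list median −0.18). PYC1, a pyruvate carboxylase that carries biotin, gave 12.19, 12.54 and 12.42 in the flor replicates against 14.04, 13.99 and 13.96 in the wine replicates, and was 3.06-fold lower (2.62 to 3.57; adjusted p = 3.6e-06). ACC1, the acetyl-CoA carboxylase, also a biotin enzyme, was 1.90-fold lower (1.63 to 2.23; adjusted p = 1.2e-04). PYC2, the second pyruvate carboxylase, was higher by 0.63 on the log2 scale, 11.56 ± 0.19 in flor cultures and 10.93 ± 0.17 in wine cultures (adjusted p = 0.0032). HFA1, the mitochondrial acetyl-CoA carboxylase, also a biotin enzyme, did not pass (−0.15, adjusted p = 0.13). PYC1 and PYC2 are similar in sequence, and what their probes share is not known here.

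BIO5, the permease for biotin precursors, was at 11.70 ± 0.25 in flor cultures and 11.92 ± 0.11 in wine cultures (−0.22, adjusted p = 0.20), and the biotin synthase gene BIO2 was at 12.42 ± 0.21 and 12.56 ± 0.05 in these strains (−0.14, adjusted p = 0.34). BIO3 (0.03), BIO4 (0.23) and the biotin ligase gene BPL1 (−0.21) did not pass. Without flor replicate 1, BIO4 (0.35, adjusted p = 0.0059) and BIO5 (adjusted p = 0.036) passed, which made 2 higher and 3 lower. Without flor replicate 3, BPL1 passed as lower (−0.33, adjusted p = 0.039), which made 1 higher and 3 lower.

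Around FEN2, genes of pantothenate synthesis and of enzymes that attach or carry its pantetheine arm changed in both directions. The listed genes that lead from pantothenate to coenzyme A (CAB1, CAB2, CAB3, CAB4 and CAB5) had no named probe. Of 10 measured genes, 3 rose, 3 fell and 4 did not pass (6 past the threshold, 60%, against 44.1% of all features; list median −0.15). PAN6, the pantothenate synthase, fell by 0.62 on the log2 scale (7.31 ± 0.08 in flor cultures and 7.93 ± 0.14 in wine cultures, adjusted p = 8.3e-04). FMS1, the polyamine oxidase that supplies the beta-alanine part of pantothenate, rose by 0.48 (adjusted p = 0.0022). On the other branch, PAN5 rose by 0.31 and ECM31 did not pass (−0.04, adjusted p = 0.80). Of the enzymes that attach or carry the pantetheine arm, LYS5 rose by 0.65 (adjusted p = 0.0017). The fatty acid synthase gene FAS2 fell by 0.78 on the log2 scale (adjusted p = 7.6e-04), and PPT2 did not pass (−0.01, adjusted p = 0.97). ILV3, which makes a valine and pantothenate precursor, fell by 0.52 on the log2 scale but did not pass without any 1 wine replicate (adjusted p = 0.067 to 0.11), and PAN5 lost its call when wine replicate 3 was omitted (adjusted p = 0.058).

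THI73, the member that was not measured under its name, belongs by name with the thiamine genes, and these were largely higher in the flor strain. Of 20 measured genes of thiamine synthesis, uptake and control, 14 rose, 2 fell and 4 did not pass (16 past the threshold, 80%, against 44.1% of all features; list median 0.50). THI5 (5.53-fold, 4.53 to 6.74), THI12 (5.28-fold), THI11 (5.27-fold) and THI4 (4.03-fold, 3.39 to 4.77) rose most, with adjusted p from 1.9e-07 to 1.6e-06. THI5, THI11, THI12 and THI13 make the pyrimidine part of thiamine and are near-identical, so their probes may not separate them. The 14 higher calls may therefore not be 14 separate signals. They also include SNZ2 (0.60) and SNZ3 (0.69), and SNO2 (0.98) and SNO3 (0.46). Whether the probes of each such pair separate the genes was not tested. THI4 makes the thiazole part. The thiamine permease gene THI7 was at 10.40 ± 0.09 in flor cultures and 10.28 ± 0.11 in wine cultures and did not pass (0.13, adjusted p = 0.29). PHO3, a phosphatase that frees thiamine outside the cell, fell by 1.23 on the log2 scale (adjusted p = 2.4e-05). The regulator gene PDC2 fell by 0.33 on the log2 scale and lost its call when wine replicate 2 or 3 was omitted (adjusted p = 0.056 and 0.064), which left 1 lower.

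**Figure D3:**
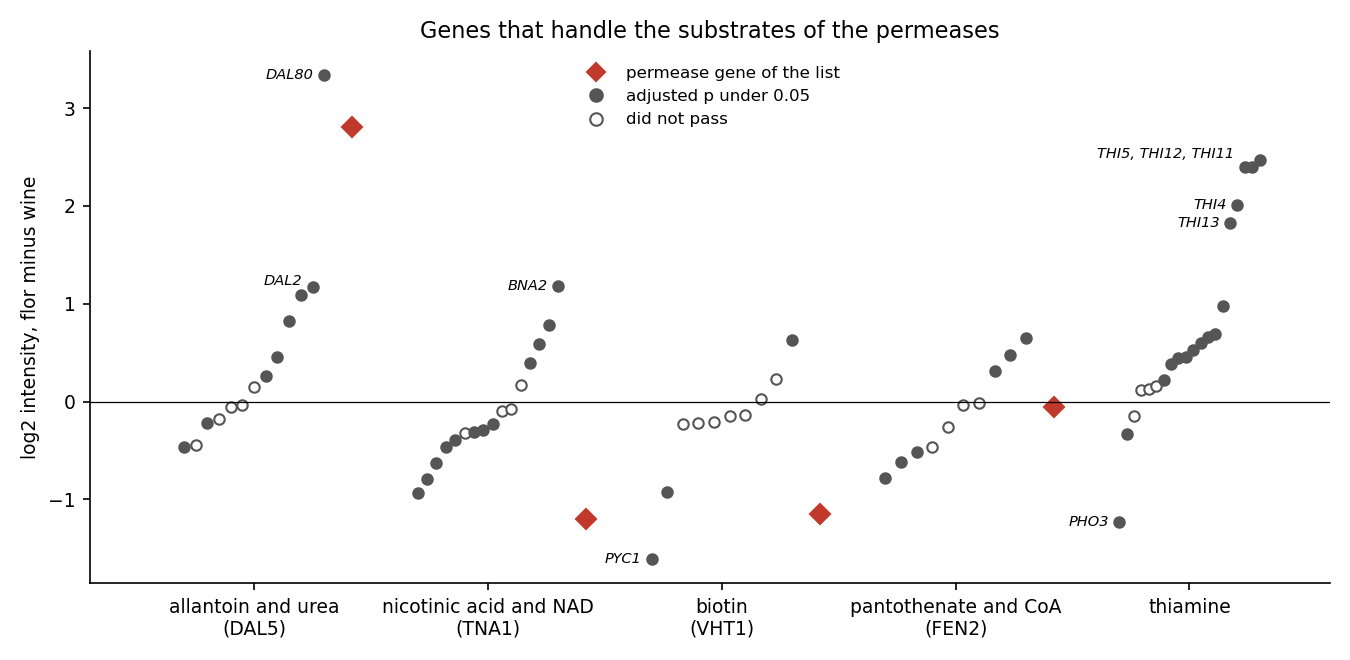
Log2 intensity in the flor strain minus that in the wine strain (y axis) for the measured genes of the 5 substrate lists (circles). Filled circles had a limma adjusted p under 0.05. Diamonds show the permease gene of each list except thiamine, where THI73 had no named probe. DAL80 lies at 3.34 beside DAL5 at 2.81, PYC1 at −1.61 beside VHT1 at −1.15, and the thiamine genes reach 2.47.

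The permeases differ in where they lie on the chromosomes, by the gene order of the R64 reference. SEO1 is the third protein-coding gene from the left end of chromosome I, and DAL5 is gene 9 from the right end of chromosome X. TNA1 is gene 32 from the right end of chromosome VII, while VHT1 lies inside chromosome VII (gene 318 of 541) and FEN2 inside chromosome III (gene 96 of 168). The nearest 2 genes with a named probe on each side of each member gave 18 genes, since none lay to the left of SEO1. Of these 6 rose, 3 fell and 9 did not pass (50% past the threshold against 44.1% of all features; median 0.03).

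Beside SEO1, the flocculin gene FLO9, 6 genes away, rose by 0.80 (adjusted p = 2.5e-04), and the glutamate dehydrogenase gene GDH3, 7 genes away, fell by 0.49 on the log2 scale (adjusted p = 0.048). FLO9 shares long stretches with other flocculin genes. Next to DAL5, the endopolygalacturonase gene PGU1 rose by 0.38 (adjusted p = 0.0034), with a signal near the bottom of the range in both strains (5.83 to 5.92 in flor, 5.43 to 5.53 in wine), whereas DAN4 (0.05), DAN1 (−0.02) and AAD10 (0.01) did not pass. None of the 4 genes beside DAL5 and neither gene beside SEO1 had a log2 difference as large as 1. Only 6.41% of all features reached that size, and the genes between SEO1 and FLO9 carry no named probe.

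Around TNA1, RAD2 (0.36), GND2 (0.33) and BUD32 (0.40) rose, which is the direction opposite to that of TNA1, and APL6 did not pass (−0.10). Beside VHT1, UPF3 rose by 0.51 (adjusted p = 0.0016) and SPT4 (0.06), COX18 (−0.02) and ROM1 (0.04) did not pass. Beside FEN2, SYP1 fell by 0.86 on the log2 scale (adjusted p = 3.1e-04) and PMP1 by 0.41, while RHB1 (−0.20) and RIM1 (0.03) did not pass. The count of lower neighbours was 1, not 3, without flor replicate 3 or without any 1 wine replicate. GDH3 and PMP1 then lost their calls (adjusted p = 0.052 to 0.17), PMP1 also without flor replicate 2 (0.12), and RAD2, GND2 and BUD32 each failed without 1 or 2 single arrays (0.056 to 0.083).

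**Figure D4:**
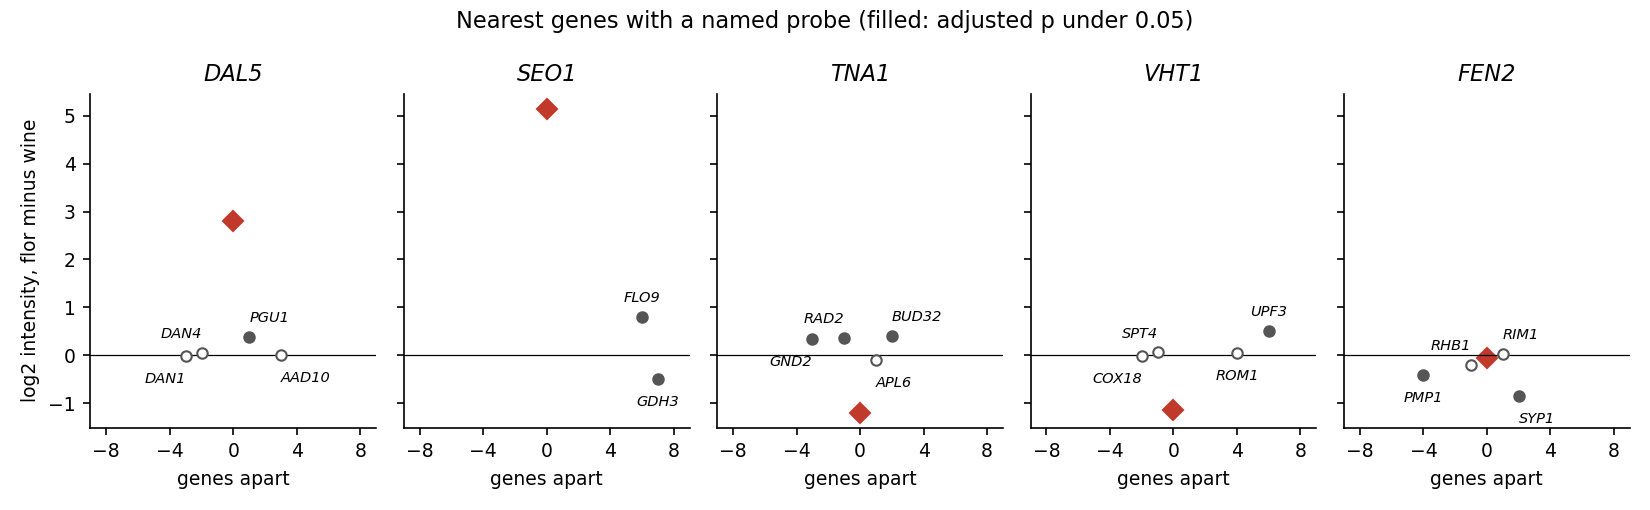
Log2 intensity in the flor strain minus that in the wine strain (y axis) for each permease gene (diamond, at 0) and for its nearest genes with a named probe (circles, filled where the limma adjusted p was under 0.05), by the number of genes apart (x axis, negative to the left). SEO1 at 5.15 and DAL5 at 2.81 stand above their neighbours, which lie between −0.49 and 0.80, and TNA1 and VHT1 lie below theirs.

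The named genes with the pattern most like that of SEO1 over the 6 arrays were found by the Euclidean distance between profiles, after subtraction of each gene's mean, among 4055 named genes. They were SOR1, the sorbitol dehydrogenase gene (distance 0.11, log2 difference 5.16), MF(ALPHA)2, an alpha-factor gene (0.25, log2 difference 5.33), and STE3, the receptor gene for a-factor (0.66, log2 difference 4.66). SOR1 has a near-identical copy, SOR2, and MF(ALPHA)2 and STE3 are markers of mating type alpha. Like SEO1, these 3 genes had low wine signals, with means of 6.01, 5.65 and 5.80.

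The same search for TNA1, the member with the largest decrease, gave HMO1, which encodes a chromatin protein (distance 0.14, log2 difference −1.20), LST4 (0.16, −1.11) and the maltose activator gene MAL13 (0.16, −1.28). With 2 strains and 6 arrays, such likeness reflects mainly the size of the strain difference.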

How the data were processed

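The authors deposited 1 log2 intensity for each of 6227 probes on 6 one-colour (Cy3) Agilent arrays. The log2 scale is inferred from their range, 5.29 to 15.88, and normalization between arrays by the authors from the nearly equal distributions of the 6 columns. R 2.14.2 and limma are named per the submitters' processing notes. How background was corrected, arrays normalized or probes filtered is not given in the sources used here. Detection calls were not used. Normalization to one distribution makes every difference relative to the other genes. The number of arrays, 3 per strain, limits the precision.

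Of the probes, 4061 had 1 gene symbol in the platform annotation, 0 had several and 2166 had none. By means of the R64 list of genes, 125 symbols were updated and 4053 matched, and probes with the same name were averaged, which gave 6226 features. The contrast flor minus wine was tested two-sided with limma 3.58.1 (lmFit, eBayes) under R 4.3.3 on a model of strain means. P-values were adjusted by the Benjamini-Hochberg method across the 6226 features, and an adjusted p under 0.05 passed. No filter was applied. Intervals are 95% intervals from the moderated standard errors. The code was tested on simulated data. Alternatives changed the scaling (quantiles, median, 75th percentile), left out the dimmest 25% or 50% of features, used robust eBayes with an intensity trend or gene-by-gene array weights, blocked on slide or replicate number, used each slide alone, omitted each array, removed a loess trend on coding length (span 0.5), lowered the threshold to 0.01 or tested against a log2 difference of 0.5 (treat).

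Members and lists were chosen with earlier results of these data known. By rule the text names all measured members, in each list up to 4 genes with the largest differences past the threshold plus those that complete small counts, neighbours past the threshold, and the 3 genes most like the members with the largest increase and decrease. Other list genes and neighbours that did not pass were named after their values were seen. No sequence was used here, so a search of promoters for motifs was not run.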

Additional observations from a re-analysis of the deposited data

How the results depend on the processing

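Over the alternatives, DAL5 ranged from 2.68 to 3.04, SEO1 from 5.08 to 5.26, VHT1 from −1.31 to −0.84, TNA1 from −1.27 to −1.10 and FEN2 from −0.08 to 0.03. Shifts beyond the replicate SD were DAL5 on slide 1 (3.04), VHT1 on slide 1 (−0.84) and slide 2 (−1.31), and, with the length trend removed, SEO1 (5.26), TNA1 (−1.10) and FEN2 (0.03); the cause was not tested. With 1 array left out, DAL5 lay between 2.68 and 2.91, SEO1 between 5.08 and 5.22, VHT1 between −1.25 and −1.06, TNA1 between −1.27 and −1.17 and FEN2 between −0.08 and −0.04. Omission of the dimmest features removed FEN2 (25% and 50%) and SEO1 (50%), so no value was had there. YCT1 and SOA1 could not be run.

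Counts are given as higher and lower. Over all features they were 701 and 723 on slide 2 alone, 297 and 222 against a log2 change of 0.5, 705 and 838 without the dimmest 50%, and 841 and 920 at an adjusted p under 0.01. With 1 array left out they ran from 966 to 1502 and from 1074 to 1777. The ranges with 1 array left out were 5 to 6 and 1 to 3 for the allantoin list, 3 to 4 and 4 to 7 for NAD, 1 to 2 and 2 to 3 for biotin, 2 to 3 and 2 to 4 for pantothenate, 12 to 15 and 1 to 3 for thiamine, and 4 to 6 and 1 to 4 for the neighbours.

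Against a log2 change of 0.5, which asks for a larger difference, the limma counts were 2 and 1 for NAD, 6 and 1 for thiamine, and 0 and 0 for pantothenate (0 and 1 at an unadjusted p under 0.05) and the neighbours (1 and 1 unadjusted). Then 0 allantoin genes were lower and 0 biotin genes higher (0 unadjusted for both). On slide 2 alone, with fewer arrays, 1 allantoin, 4 NAD and 1 thiamine gene were lower, and 3 neighbours were higher and 1 lower. At an adjusted p under 0.01, 1 allantoin, 4 NAD and 1 thiamine gene were lower, and the neighbours had 3 and 1. Without the dimmest 50%, where fewer genes are tested, 3 allantoin genes were higher and 0 lower (2 unadjusted, limma), NAD had 2 and 5, and 8 thiamine genes and 3 neighbours were higher. Without the dimmest 25%, 0 allantoin genes were lower (2 unadjusted, limma). The allantoin list had 4 lower with array weights and 1 with an intensity trend or slide as a block, the biotin list 2 higher with array weights, and the thiamine list 1 lower with the length trend removed.

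Deviations of same-numbered replicates from their strain means correlated at 0.37, 0.23 and 0.05, and 4 of 6 arrays correlated best with their own number. These values do not settle whether the numbers mark pairs. The main fit did not pair them, and the replicate block was run as an alternative. With the replicate block, 1393 features were higher and 1580 lower, DAL5 stayed at 2.81, SEO1 at 5.15, VHT1 at −1.15, TNA1 at −1.20 and FEN2 at −0.06. Over 93 list, neighbouring and like-patterned genes, 153 of 1724 comparisons with an alternative lost a call and 23 gained one. The sign changed in 40 of them, over 15 genes, and in 0 of these did limma call the gene in either fit. Among the gained calls was DUR3 with the replicate block (adjusted p = 0.04). Values near the bottom of the range limit what can be read of the wine level of SEO1 and of FEN2 in both strains. The same limit applies to other dim genes named here. DAL1, DAL4, GZF3, NMA1, PPT2, THI22, SNO3, FLO9, PGU1, DAN1 and MAL13 lay below the lower quartile on every array. DAL80 and THI13 did so on every wine array.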
